A study of Mus musculus with 18 samples.

Results

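Transcripts of 10 genes that carry or limit signalling through the parathyroid hormone receptor were followed across 18 RNA-seq libraries of sorted mouse skeletal cells. The genes were chosen by name, with earlier results of these data known, and all 10 were found by gene ID among 54446 genes. They are the receptor Pth1r, its locally made ligand Pthlh, the G protein alpha subunits Gnas, Gnaq and Gna11, the arrestins Arrb1 and Arrb2, the regulator Rgs2 and the cAMP phosphodiesterases Pde4b and Pde4d. All 10 passed the filter on low counts.

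The libraries came from cells of mice at postnatal day 21 that derive from osterix-expressing precursors, osterix being a factor that commits cells to bone formation. Mice labelled Conditional PTH1R KO, with the receptor deleted in osteoprogenitors per the series title, were set against mice labelled Wild type, whose libraries are titled Ctrl. From each genotype 3 subsets were sorted. Marrow stromal cells were GFP-negative and positive for a marker written Tm (BM_GFP-Tm+). Bone cells were either GFP-positive (Bone_GFP+) or GFP-negative and Tm-positive (Bone_GFP-Tm+). Each of the 6 groups had 3 libraries. The labels leave out the transgene behind GFP, the Cre line, the deleted exons of Pth1r and any allele the controls share. The labels do not say that the 3 libraries of each group are from different animals, so p-values measure only the spread between these samples.

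PTH1R is a class B G protein-coupled receptor for parathyroid hormone, which reaches bone through the blood, and for parathyroid hormone-related protein, which cells of the growth plate and bone make themselves. The bound receptor couples mainly to Gs, encoded by Gnas, so that adenylyl cyclase raises cAMP and protein kinase A is activated. It can also couple to Gq and G11, which turn on phospholipase C, inositol trisphosphate receptors and protein kinase C. Beta-arrestins bind the phosphorylated receptor and move it off the surface, RGS proteins speed the shut-off of G alpha subunits, and phosphodiesterases of the PDE4 family break down cAMP. In osteoblasts the receptor controls bone formation and the release of signals to osteoclasts, and in the growth plate it holds back chondrocyte maturation.

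Promoter sequence is shown for Rgs2, Pde4b and Pth1r, because the levels of Rgs2 and Pde4b followed that of Pth1r most closely, in opposite directions, across the libraries. The windows are those of RefSeq on GRCm38.p6 and run from 250 bases before to 50 after an annotated start. In capitals are matches to TGACG, the core of the element through which cAMP-activated CREB binds DNA, on either strand (CGTCA is the same motif on the other strand). Rgs2 has 1 window, on the minus strand at chr1:144004100-144004399. Of the 4 windows of Pde4b and the 3 of Pth1r, the 1 of each gene that holds a match is printed, on the plus strand at chr4:102421305-102421604 and on the minus strand at chr9:110747096-110747395.
Rgs2 promoter: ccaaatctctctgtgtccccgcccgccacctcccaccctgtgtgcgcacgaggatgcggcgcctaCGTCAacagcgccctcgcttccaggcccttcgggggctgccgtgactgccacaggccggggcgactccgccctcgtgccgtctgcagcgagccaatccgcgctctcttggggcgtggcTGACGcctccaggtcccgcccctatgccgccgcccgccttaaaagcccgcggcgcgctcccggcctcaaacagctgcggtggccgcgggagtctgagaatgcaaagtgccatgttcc
Pde4b promoter, window 1: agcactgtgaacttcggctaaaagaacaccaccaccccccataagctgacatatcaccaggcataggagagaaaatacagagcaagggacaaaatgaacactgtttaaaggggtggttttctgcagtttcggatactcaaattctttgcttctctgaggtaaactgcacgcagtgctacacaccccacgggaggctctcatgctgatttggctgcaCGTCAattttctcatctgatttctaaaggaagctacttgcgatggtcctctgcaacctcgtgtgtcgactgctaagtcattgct
Pth1r promoter, window 1: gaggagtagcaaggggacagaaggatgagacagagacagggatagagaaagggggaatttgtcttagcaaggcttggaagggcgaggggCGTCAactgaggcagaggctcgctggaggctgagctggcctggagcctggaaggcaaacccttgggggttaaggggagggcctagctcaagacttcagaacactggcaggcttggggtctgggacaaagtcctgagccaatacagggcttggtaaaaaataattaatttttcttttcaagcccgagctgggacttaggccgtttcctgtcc
The Rgs2 window holds 2 matches, which start 185 and 67 bases before the start site, and the Pde4b and Pth1r windows hold 1 each, 34 and 161 bases before it. At least 1 match is present in 20.8% of the 32851 mouse promoter windows of that length. That share is per window, and the Pde4b and Pth1r windows were picked from several because they hold a match. It is therefore no background for those 2 genes. Windows 2, 3 and 4 of Gnas, of which 2 and 3 overlap, also hold 1 match each. The windows of Pthlh, Gnaq, Gna11 and Pde4d hold none. The full element, TGACG followed directly by TCA, was found in no window of the members that have one and in 1.79% of all windows. Arrb1 and Arrb2 had no window in the table. A match of these letters is a description and shows no binding.

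Each library held 16443595 to 27160257 counts. Values of single genes are CPM, counts scaled to library size with TMM factors, and 3 counts, the limit that a count of 0 allows, correspond to 0.0966 to 0.216 CPM for counting error alone. Values of cell type markers, single or summed, are instead CPM on library totals without TMM factors. Knockout libraries read long genes higher than control libraries did: across genes, the log2 fold change of knockout over control correlated with the length of the longest transcript (Spearman rho 0.41 in marrow, 0.44 in GFP-positive bone and 0.44 in GFP-negative bone; genes are not independent replicates). The knockout comparisons are therefore also given with that trend removed, by longest transcript unless stated. The trend also differed between subsets of the same genotype. By library, the slope on log length was -0.0875 to -0.0475 in control marrow and -0.341 to -0.246 in control GFP-positive bone. In the knockout it was 0.243 to 0.268 in marrow and 0.0706 to 0.134 in GFP-positive bone. Comparisons between subsets are given as counted unless stated. By lists of 6 markers each, both marrow groups carried marrow stroma genes, at summed levels of 47004 to 58190 CPM in knockout and 25383 to 37820 CPM in control, and the same list summed to 556 to 709.9 CPM in knockout and 342 to 389 CPM in control GFP-positive bone. GFP-negative bone was led by osteoblast genes (264455 to 346306 CPM in knockout and 217462 to 239790 CPM in control). GFP-positive bone, labelled bone cells, carried more chondrocyte marker RNA (239456 to 253663 CPM in knockout and 95556 to 118187 CPM in control) than osteoblast marker RNA (35325 to 48981 CPM in knockout and 33618 to 55470 CPM in control). Osteoblast markers in marrow summed to 66540 to 90525 CPM in knockout and 143525 to 194425 CPM in control. None of these markers was at 0 in any library. Over the 12 marker lists and 3 subsets, the ranges of knockout and control libraries on library totals did not overlap in 22 of 36 cases. The marrow stroma sum was higher in the knockout in all 3 subsets, with 3012 to 3325 CPM in knockout and 1121 to 1556 CPM in control GFP-negative bone. The chondrocyte sum on library totals separated in all 3 too, and was lower in knockout GFP-negative bone, at 20235 to 22832 CPM against 26134 to 35548 CPM in control. Col2a1 carried that sum, at means of 19024 CPM in knockout and 26450 CPM in control GFP-negative bone. Col10a1 ran the other way there, at 943 to 1217 CPM in knockout and 746 to 912 CPM in control. Matn1 was lower in knockout marrow, where the sum was higher (22.3 to 28.7 CPM against 37.3 to 41.6 CPM in control). On library totals the median gene also reads lower in knockout than in control bone, as given below. The marker comparisons were not repeated with TMM factors, so these separations hold for library totals only. In GFP-negative bone the osteoblast sum was carried by Col1a1, at a mean of 290419 CPM in knockout and 219634 CPM in control. Bglap and Alpl had lower means in the knockout (4323 against 6044 CPM for Bglap). The mean of Sp7 was lower by less on library totals (210 against 233 CPM), and its direction was not checked with TMM factors. Leukocyte markers in GFP-positive bone summed to 90.3 to 111 CPM in knockout and 45.3 to 61.3 CPM in control. That sum was carried by Lcp1, at means of 92.7 CPM in knockout and 44.9 CPM in control, while Ptprc averaged 1.42 and 0.468 CPM. B cell markers in marrow summed to 371 to 474 CPM in knockout and 172 to 217 CPM in control, with up to 3 and 2 of the 6 markers at 0 in a library. The leukocyte sum in marrow overlapped, at 3.06 to 12.6 CPM in knockout and 3.71 to 10.2 CPM in control. Which markers carried the B cell sum is not given here, so it is not read as an amount of B cells. Erythroid markers reached 468 CPM in 1 library of knockout GFP-positive bone and 470.4 CPM in 1 of control GFP-negative bone, and endothelial markers at most 12.2 CPM in any. The part of these markers in the results below was not tested. In sorted bulk RNA, fewer cells of a type and less RNA per cell cannot be told apart.

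Pth1r, the receptor gene itself at chr9:110722085-110747145 (mm10, minus strand), fell in the knockout in all 3 subsets, to 61.4% of the control mean in marrow, 69.8% in GFP-positive bone and 67.9% in GFP-negative bone. In marrow its level was 372, 337 and 318 CPM in the knockout libraries and 541, 580.3 and 552 CPM in the controls. GFP-positive bone read 4036, 3253 and 2724 CPM in the knockout and 4478, 4839 and 5032 CPM in the controls, and GFP-negative bone 1397, 1136 and 1030 CPM in the knockout and 1673, 1668 and 1910 CPM in the controls. Every knockout library lay below every control library of its subset. On the log2 scale the changes came to -0.70 ± 0.13 for marrow, -0.52 ± 0.13 for GFP-positive and -0.56 ± 0.13 for GFP-negative bone (± SE, edgeR quasi-likelihood test, adjusted p = 1.95e-04, 0.00226 and 0.00145). The 3 effects did not differ past the threshold, with a difference of 0.18 ± 0.18 between GFP-positive bone and marrow as the largest (edgeR adjusted p = 0.544). Removing the length trend left -0.44 in marrow, still called, but -0.15 in GFP-positive and -0.26 in GFP-negative bone, which were no longer called. The counts cover all exons of Pth1r together, so they do not show how much of the transcript that remained was intact. Only 3.25% of its exon bases are shared with another gene, Myl3 on the other strand.

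Among these genes Pth1r was also the most abundant per length in every group. It stood at 1141 ± 226 CPM per kb of merged exons in knockout GFP-positive bone and 1635 ± 96.1 in control GFP-positive bone (SD, n = 3 each). In marrow it stood at 117 ± 9.42 CPM per kb in the knockout and 191 ± 6.97 in the control. Ordered by level, control GFP-positive bone came above knockout GFP-positive bone, then control and knockout GFP-negative bone, then control and knockout marrow. No neighbouring groups in that order overlapped. Every knockout library of GFP-positive bone thus read more Pth1r than any control library of the other subsets.

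**Figure D1:**
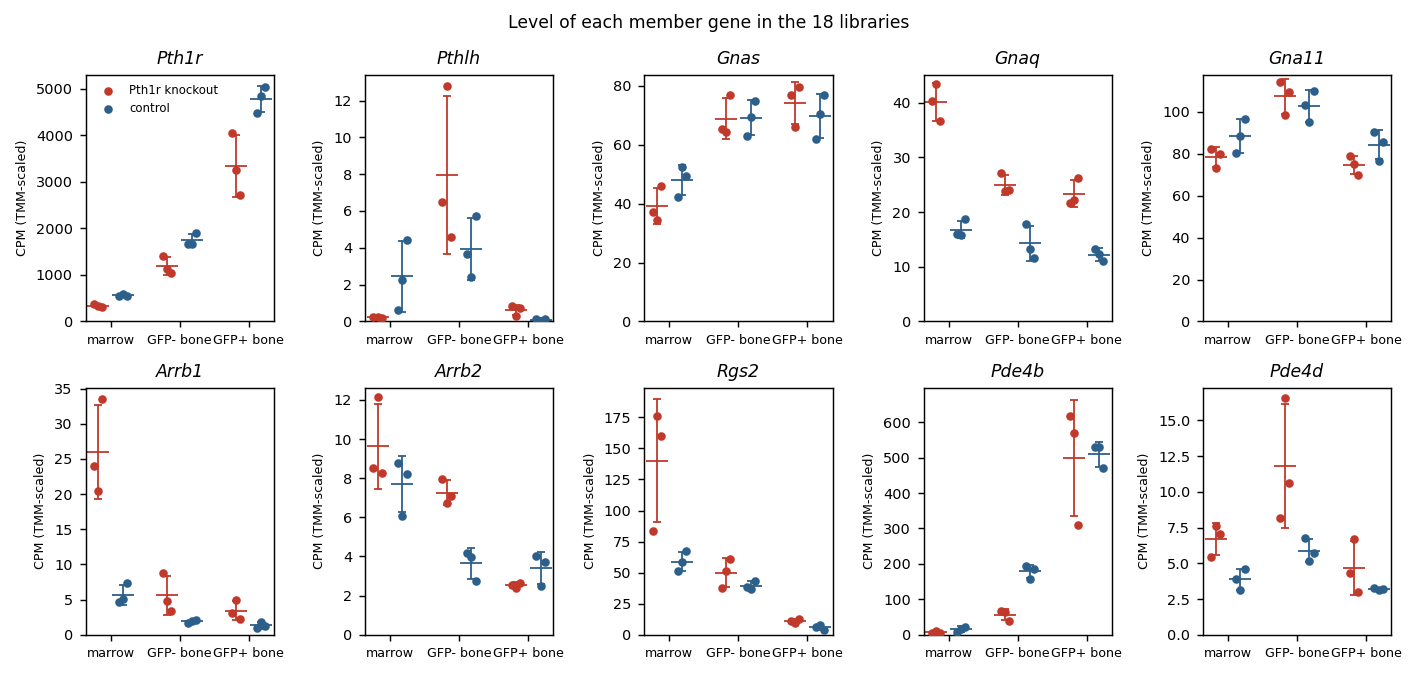
Level of each gene in the 18 libraries, in CPM after TMM scaling on a linear axis from 0, by subset, with knockout libraries in red to the left of control libraries in blue; points are libraries, and bars are the mean and SD (n = 3). Pth1r and Pde4b are highest in GFP-positive bone and lowest in marrow, Rgs2, Arrb1 and Arrb2 are highest in marrow, and Gnaq lies higher in the knockout in every subset.

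Pthlh, the gene of parathyroid hormone-related protein at chr6:147252101-147264183 (minus strand), was scarce, fell in knockout marrow and rose in knockout GFP-negative bone. Marrow read 0.225, 0.261 and 0.188 CPM in the knockout libraries, from 7, 7 and 4 reads, and 0.636, 2.27 and 4.43 CPM in the controls, from 17, 53 and 93 reads. The groups did not overlap, although the control libraries differed widely among themselves, and Pthlh fell in the knockout (log2 fold change -3.33 ± 0.77, edgeR adjusted p = 0.00112). Without control marrow replicate 3, the highest library, the fitted change was -2.60 and still called.

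In GFP-negative bone, where Pthlh was highest, the knockout libraries read 6.51, 12.8 and 4.58 CPM and the controls 3.64, 2.41 and 5.75 CPM. These groups overlapped, and 1 knockout library stood well above the rest. The log2 fold change was 1.05 ± 0.41 (edgeR adjusted p = 0.0368), and without that library, knockout replicate 2, it was 0.53 and not called. The call was also lost without control replicate 1 (1.01) or 2 (0.78), with DESeq2 (1.12), with no filter on low counts, library totals alone or the estimateDisp dispersion, and without any 1 of the 3 control GFP-positive libraries (log2 fold change 1.05 to 1.06), which enter only the shared estimate of spread (adjusted p 0.00511 to 0.348 over 27 alternatives). In GFP-positive bone the reads were 18, 6 and 10 in the knockout and 3, 0 and 3 in the controls, or 0.822, 0.291 and 0.719 CPM in the knockout and 0.114, 0 and 0.144 CPM in the controls. Every knockout library was above every control library, and pooled reads scaled to library size gave a ratio of 7.28 (95% interval 3.02 to 21.2, counting error only). That difference did not pass the edgeR threshold (adjusted p = 0.0981), while DESeq2 (adjusted p = 0.00235) and edgeR with the estimateDisp dispersion (adjusted p = 0.0140) called it (within 0.00235 to 0.249 over 26 alternatives).

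The knockout effect on Pthlh differed between marrow and each bone subset. The effect in GFP-positive bone minus that in marrow was 6.11 ± 1.58 on the log2 scale (edgeR adjusted p = 0.00952), a fitted value that rests on control GFP-positive libraries with 3 reads or fewer. The effect in GFP-negative bone minus that in marrow was 4.38 ± 0.87 (edgeR adjusted p = 0.00241). Both were called in all 27 alternatives run. Leaving out control marrow replicate 3 moved them to 5.38 and 3.65, and leaving out control GFP-positive replicate 2, which had no Pthlh read, moved that of GFP-positive bone to 5.52.

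Gnas, at chr2:174284320-174346744 (plus strand), encodes the stimulatory alpha subunit through which the receptor raises cAMP. The locus also makes XL-alpha-s, NESP55 and several other transcripts. Its counted level was 34.3 to 46.0 CPM in knockout and 42.3 to 52.6 CPM in control marrow, 66.1 to 79.6 and 61.9 to 77.0 CPM in knockout and control GFP-positive bone, and 64.3 to 77.0 and 63.0 to 74.8 CPM in knockout and control GFP-negative bone. The genotypes overlapped in every subset, and no knockout difference passed the threshold, with -0.30 ± 0.13 in marrow as the largest (edgeR adjusted p = 0.0607). The marrow difference was called without control replicate 1 (-0.38) or knockout replicate 3 (-0.42) and with either length correction (adjusted p 2.52e-05 to 0.334 over 27 alternatives). It was higher in bone than in marrow: the log2 difference of GFP-positive bone over marrow was 0.92 ± 0.13 in the knockout and 0.54 ± 0.12 in controls (edgeR adjusted p = 2.94e-06 and 9.82e-04). Other genes share parts of the locus. The annotation places gene model Gm20721 on the opposite strand, and its exons cover 80.4% of transcript Gnas-207, whose first exon starts at position 174330006, and 13.1% of all Gnas exon bases. Nespas, another antisense gene, covers 8.83%. Over all libraries Gnas received 22914 counts and Gm20721 6. The sources used here do not say whether reads in shared exons went to either gene, so these values cannot be read as the level of the Gs alpha transcript, and the effect of the overlap was not tested.

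Gnaq, at chr19:16132831-16387463 (plus strand), encodes the alpha subunit of Gq. It rose in the knockout in all 3 subsets. The knockout libraries read 40.4, 43.4 and 36.6 CPM in marrow, against 16.0, 15.8 and 18.7 CPM in the controls. In GFP-positive bone Gnaq read 21.7, 22.2 and 26.2 CPM in the knockout against 13.3, 12.3 and 11.0 CPM in the controls, and in GFP-negative bone 27.1, 23.8 and 24.1 CPM in the knockout against 17.9, 13.3 and 11.7 CPM in the controls. No knockout library overlapped the controls of its subset. The log2 fold changes were 1.26 ± 0.14, 0.93 ± 0.15 and 0.81 ± 0.15 in marrow, GFP-positive and GFP-negative bone (edgeR adjusted p = 6.87e-07, 2.87e-05 and 1.66e-04). Gnaq is long, and the 816 genes of nearly the same longest transcript had a median log2 fold change of 0.52, 0.81 and 0.61 in the same comparisons. After the length trend was removed Gnaq stood at 0.73 in marrow, still called, and at 0.29 and 0.23 in GFP-positive and GFP-negative bone, not called. Correction by merged exons gave 0.66 and 0.55 in those subsets, both called.

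Gna11, at chr10:81528724-81545190 (minus strand), encodes G11, which couples to the same effectors. Its level ranged only from 70.1 to 114 CPM over the 18 libraries, and knockout and control libraries overlapped in every subset. No knockout difference passed the threshold (log2 fold changes -0.17 ± 0.10 in marrow, -0.18 ± 0.10 in GFP-positive and 0.06 ± 0.10 in GFP-negative bone, edgeR adjusted p = 0.145, 0.141 and 0.624). With library totals alone the value in GFP-positive bone was -0.56 and called (adjusted p = 7.69e-05). Per kb of merged exons Gna11 exceeded Gnaq in every group. The ratio of Gna11 to Gnaq was 2.97 ± 0.386 in knockout and 7.96 ± 0.444 in control marrow (SD, n = 3 each). It was 4.87 ± 0.743 in knockout and 10.5 ± 1.20 in control GFP-positive bone, and 6.49 ± 0.331 in knockout and 11.2 ± 2.80 in control GFP-negative bone. In each subset all 3 knockout ratios lay below all 3 control ratios. The ratio compares genes of unequal length and carries the length trend described above.

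Of the beta-arrestins, which desensitise the receptor, Arrb1 at chr7:99535466-99606771 (plus strand) rose in the knockout in all 3 subsets. In marrow it read 23.9, 20.5 and 33.5 CPM in the knockout and 4.64, 5.13 and 7.33 CPM in the controls. The values were 3.10, 4.99 and 2.23 CPM in knockout and 0.912, 1.81 and 1.30 CPM in control GFP-positive bone, and 8.73, 4.74 and 3.36 CPM in knockout and 1.69, 1.99 and 2.04 CPM in control GFP-negative bone. The groups were separate in each subset, but in bone both were low. The log2 fold changes were 2.19 ± 0.27, 1.40 ± 0.43 and 1.57 ± 0.40 in marrow, GFP-positive and GFP-negative bone (edgeR adjusted p = 2.73e-06, 0.0109 and 0.00338). Arrb1 has the longest transcript of the 10 genes, and the 544 genes of like length had median log2 fold changes of 0.83, 1.28 and 0.97. Without the length trend the change was 1.43 in marrow and called, and 0.46 and 0.77 in GFP-positive and GFP-negative bone and not called. The call in GFP-positive bone was also lost with library totals alone (1.02) and without control replicate 1 (1.16) or knockout replicate 2 (1.03).

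Arrb2, at chr11:70432635-70440828 (plus strand), is the other beta-arrestin, and its transcript is short. It rose in knockout GFP-negative bone, with 7.95, 6.75 and 7.10 CPM in the knockout and 4.20, 3.99 and 2.75 CPM in the controls, which did not overlap (log2 fold change 0.99 ± 0.25, edgeR adjusted p = 0.00273). The 795 genes of like length had a median of -0.45 there, and Arrb2 stood at 1.40 with the length trend removed. In marrow it read 8.50, 12.1 and 8.26 CPM in the knockout and 8.79, 6.07 and 8.24 CPM in the controls, and in GFP-positive bone 2.56, 2.37 and 2.66 CPM in the knockout and 4.03, 2.48 and 3.70 CPM in the controls. In these subsets the genotypes overlapped and neither difference was called (0.32 ± 0.20 and -0.43 ± 0.28, edgeR adjusted p = 0.193 and 0.215), while the length-corrected value in marrow, 0.67, was called and GFP-positive bone was called lower under library totals alone (-0.81). The knockout effect differed between the bone subsets, by -1.42 ± 0.37 for GFP-positive minus GFP-negative bone (edgeR adjusted p = 0.0288). That call ended on leaving out control GFP-positive replicate 1 (-1.27) or 3 (-1.35), control GFP-negative replicate 3 (-1.26), knockout GFP-positive replicate 1 (-1.42) or 2 (-1.38), or knockout GFP-negative replicate 1 (-1.34; adjusted p 0.00198 to 0.0831 over 27 alternatives). Per kb of merged exons, the ratio of Arrb1 to Arrb2 was 0.726 ± 0.301 in knockout and 0.192 ± 0.0503 in control marrow (SD, n = 3 each). It was 0.353 ± 0.165 in knockout and 0.111 ± 0.0668 in control GFP-positive bone, and 0.193 ± 0.0804 in knockout and 0.139 ± 0.0440 in control GFP-negative bone. The genotypes did not overlap in marrow or GFP-positive bone, and did in GFP-negative bone. This ratio compares a long with a short transcript and carries the length trend. With the trend removed, neither gene was called in GFP-positive bone (0.46 for Arrb1 and 0.03 for Arrb2).

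Rgs2, at chr1:143999338-144004161 (minus strand, the promoter with 2 TGACG matches above), encodes a regulator that shortens the active state of Gq and that parathyroid hormone is known to induce in bone cells. It rose in knockout marrow, with 83.7, 176 and 160.0 CPM in the knockout and 51.4, 58.3 and 67.0 CPM in the controls. Both marrow groups lay well above GFP-positive bone, which read 11.4, 9.50 and 12.3 CPM in the knockout and 6.34, 7.69 and 3.90 CPM in the controls. GFP-negative bone was intermediate, at 37.5, 51.2 and 60.8 CPM in the knockout and 38.4, 36.8 and 43.5 CPM in the controls. The genotypes were separate in marrow and GFP-positive bone and overlapped in GFP-negative bone. Rgs2 rose in marrow (log2 fold change 1.25 ± 0.24, edgeR adjusted p = 3.40e-04) and in GFP-positive bone (0.86 ± 0.31, adjusted p = 0.0257), while the value in GFP-negative bone was 0.33 ± 0.25 (adjusted p = 0.291). Genes of like length had medians of -0.14, -0.15 and -0.20 in marrow, GFP-positive and GFP-negative bone, and removing the trend gave 1.38 and 1.08 in marrow and GFP-positive bone, both called. Knockout marrow replicate 2 also held 289.9 CPM of summed megakaryocyte markers, where every other library held at most 5.22 CPM. Without it the change of Rgs2 in marrow was 1.05 and called. The call in GFP-positive bone was lost without control replicate 3 (0.67), knockout replicate 1 (0.86) or knockout replicate 3 (0.80), and with no filter on low counts (0.83) and with library totals alone (0.48).

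Pde4b, at chr4:102087543-102607259 (plus strand), encodes a cAMP phosphodiesterase that cAMP signalling is itself known to induce. It fell in knockout GFP-negative bone, to 66.5, 65.1 and 38.4 CPM, against 195, 157 and 185 CPM in the controls. In GFP-positive bone, where it was highest, it read 617, 569 and 311 CPM in the knockout and 530.1, 531 and 469 CPM in the controls. Marrow was lowest, with 5.50, 10.7 and 5.49 CPM in the knockout and 7.97, 16.0 and 23.2 CPM in the controls. The genotypes were separate in GFP-negative bone alone, and 1 knockout library of GFP-positive bone lay below all other libraries of that subset. In GFP-negative bone the log2 fold change was -1.65 ± 0.34 (edgeR adjusted p = 0.00103), called in all 27 alternatives, beside a median of 0.18 among 1423 genes of like length. GFP-positive bone gave -0.03 ± 0.32 (adjusted p = 0.950). The difference between these effects, 1.62 ± 0.46, missed the threshold (edgeR adjusted p = 0.0551), though it was called in 7 of 27 alternatives, DESeq2 among them (1.55, adjusted p 0.0149 to 0.182 over 27 alternatives). In marrow the log2 fold change was -1.10 ± 0.40 (edgeR adjusted p = 0.0346). That call was lost without control replicate 2 (-1.08) or 3 (-0.71) and without knockout replicate 1 (-0.92) or 3 (-0.95). It was also lost with no filter, with library totals alone and in a fit of the marrow groups only (adjusted p 0.00271 to 0.180 over 27 alternatives).

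Pde4d, a related enzyme at chr13:108449948-109953461 (plus strand), was low throughout, at 3.02 to 16.6 CPM. It rose in knockout GFP-negative bone, with 8.16, 16.6 and 10.6 CPM in the knockout and 6.77, 5.19 and 5.69 CPM in the controls (log2 fold change 1.01 ± 0.27, edgeR adjusted p = 0.00407). The groups were separate, but 1 knockout library stood above the rest, and without that library, replicate 2, the value was 0.67 and not called. Length correction by merged exons gave 0.28, not called, and by longest transcript 0.84, called. In marrow it read 5.47, 7.58 and 7.04 CPM in the knockout and 3.89, 3.16 and 4.62 CPM in the controls, without overlap (0.78 ± 0.28, edgeR adjusted p = 0.0259). The marrow call was lost on removal of the length trend (0.63) and without control replicate 1 (0.78) or 2 (0.65) or knockout replicate 2 (0.67) or 3 (0.75). In GFP-positive bone it read 4.29, 6.69 and 3.02 CPM in the knockout and 3.27, 3.12 and 3.22 CPM in the controls, which overlapped (0.58 ± 0.31, adjusted p = 0.127). Per kb of merged exons the ratio of Pde4b to Pde4d was 5.95 ± 2.87 in knockout and 34.7 ± 2.12 in control GFP-negative bone (SD, n = 3 each). In GFP-positive bone the ratio was 126 ± 34.2 in the knockout and 181 ± 14.3 in the controls, and in marrow it was 1.21 ± 0.362 in the knockout and 4.60 ± 1.97 in the controls. All knockout ratios lay below all control ratios of the same subset.

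**Figure D2:**
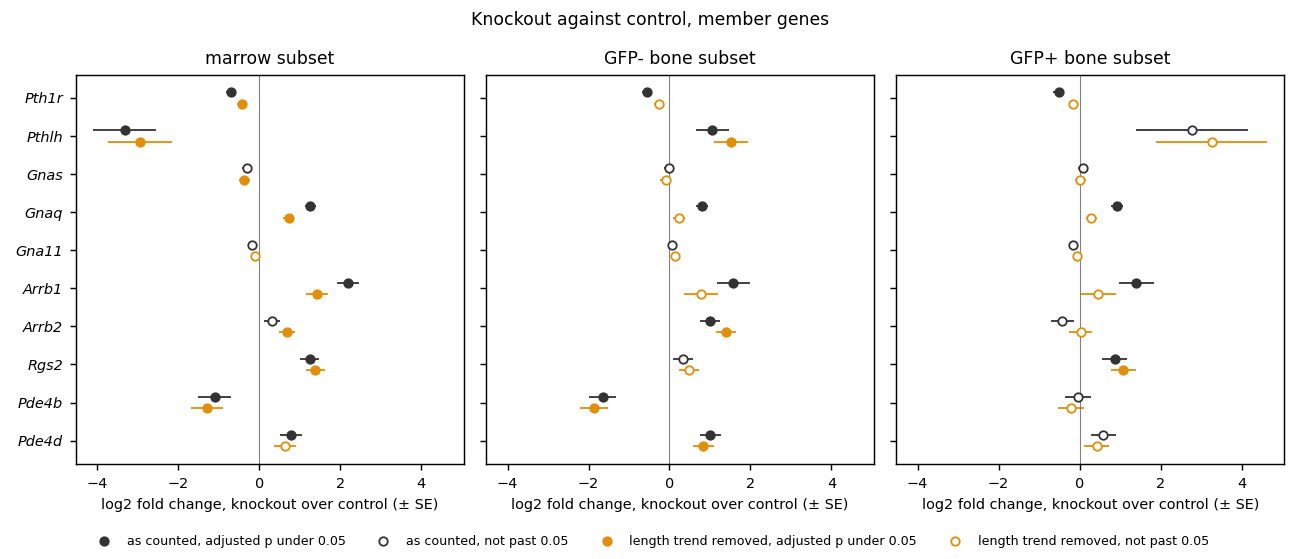
Log2 fold change of knockout over control for each gene in the 3 subsets, with its SE as a bar; black points are the fit as counted, orange points the fit with the length trend of each library removed (longest transcript), and filled points passed an adjusted p of 0.05. The values of Gnaq and Arrb1 move toward 0 when the trend is removed and those of Arrb2 move upward, while Pde4b in GFP-negative bone stands at -1.65 as counted and -1.86 with the trend removed.

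Counted together, 4 of the 10 genes rose and 3 fell in knockout marrow, 3 rose and 1 fell in knockout GFP-positive bone, and 5 rose and 2 fell in knockout GFP-negative bone (edgeR, adjusted p under 0.05). Of all 15516 genes tested, 47.9% were called in marrow (23.1% higher and 24.8% lower in the knockout), 51.3% in GFP-positive bone (26% and 25.3%) and 47.1% in GFP-negative bone (21.5% and 25.7%). A count of this size is therefore not particular to these genes. Their median log2 fold change was 0.07, 0.34 and 0.57, beside -0.04, 0.03 and -0.07 over all genes. These medians are as counted and carry the length trend. Pth1r, Gnaq and Arrb1 were called in the same direction in all 3 subsets. Of the differences in effect between subsets, 1 of the 10 genes, Pthlh, was called higher for GFP-positive bone minus marrow, beside 18.4% (10.8% higher and 7.6% lower) of all genes. Pthlh alone was also called higher for GFP-negative bone minus marrow, beside 7.79% (4.49% higher and 3.31% lower). For GFP-positive minus GFP-negative bone 1 gene, Arrb2, was called lower, beside 6.08% (4.98% higher and 1.11% lower). Scaling by library totals alone moved the median of all genes to -0.34 in GFP-positive and -0.30 in GFP-negative bone. Under it 30.9% and 30.8% of called genes were higher in the knockout, against 50.7% and 45.6% with TMM scaling. In marrow the share was 59.6% under totals and 48.2% with TMM.

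Between the sorted subsets the levels of several of these genes lay further apart than between genotypes. In GFP-positive bone over marrow, 3 of the 10 were higher and 4 lower in the knockout, and 3 higher and 5 lower in controls, beside 67.3% (32.6% higher and 34.7% lower) of all genes in the knockout and 62.8% (29.8% higher and 33% lower) in controls. Pde4b was higher in GFP-positive bone, with a log2 difference of 6.11 ± 0.42 in the knockout and 5.03 ± 0.39 in controls. Pth1r was higher too, with 3.28 ± 0.14 in the knockout and 3.10 ± 0.14 in controls. Rgs2 ran the other way, with -3.67 ± 0.27 in the knockout and -3.28 ± 0.28 in controls (all edgeR adjusted p at most 3.90e-08). Arrb1 and Arrb2 were lower in GFP-positive bone than in marrow too. The log2 difference of Arrb1 was -2.86 ± 0.30 in the knockout and -2.07 ± 0.39 in controls, and that of Arrb2 was -1.94 ± 0.24 in the knockout and -1.18 ± 0.23 in controls (edgeR adjusted p at most 1.73e-04). Gnaq was lower in GFP-positive bone as well, at -0.79 ± 0.14 in the knockout and -0.46 ± 0.15 in controls (adjusted p = 5.14e-05 and 0.0111). The control value of Gnaq was not called with no filter on low counts, once the length trend was removed (-0.21) or control marrow replicate 3 was left out (-0.38). Pde4d in the knockout, at -0.47 ± 0.28 (adjusted p = 0.139), was called only with the replicate number as a block (-0.50, adjusted p = 0.0445), with library totals or without knockout GFP-positive replicate 2 (-0.83; adjusted p 0.00352 to 0.399 over 27 alternatives). Pthlh in controls had 6 reads in GFP-positive bone and 163 in marrow, a scaled ratio of 0.0361 (95% interval 0.0131 to 0.0803, counting error only; edgeR adjusted p = 2.19e-04). The fitted log2 difference was -4.72 ± 0.97, or -4.00 without control marrow replicate 3 and -4.14 without control GFP-positive replicate 2. In the knockout its log2 difference was 1.38 ± 1.08 (adjusted p = 0.264).

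In GFP-negative bone over marrow, 6 of the 10 were higher and 3 lower in the knockout, and 3 higher and 2 lower in controls, beside 46.9% (22.6% higher and 24.3% lower) of all genes in the knockout and 39.3% (21.1% higher and 18.2% lower) in controls. Pth1r, with 1.79 ± 0.13 in the knockout and 1.65 ± 0.13 in controls, and Pde4b, with 2.97 ± 0.39 in the knockout and 3.52 ± 0.37 in controls, were again higher in bone. Gnas was higher too, with 0.82 ± 0.13 in the knockout and 0.53 ± 0.13 in controls, though not called with library totals alone (0.14 in the knockout and 0.24 in controls, adjusted p = 0.304 and 0.119). Also higher was Gna11 in the knockout, at 0.45 ± 0.10 (edgeR adjusted p = 6.80e-04). Gna11 in controls stood at 0.22 ± 0.10 and was called with either length correction and without control marrow replicate 3 (0.28; adjusted p 0.0350 to 0.611 over 27 alternatives). Arrb1 was lower in bone, with -2.18 ± 0.28 in the knockout and -1.56 ± 0.39 in controls, and Gnaq was lower in the knockout, at -0.68 ± 0.14 (adjusted p = 3.94e-04). Arrb2 was lower in controls, at -1.08 ± 0.24 (adjusted p = 0.00138), and stood at -0.41 ± 0.21 in the knockout (adjusted p = 0.115). Pthlh was higher in GFP-negative bone than in marrow in the knockout, by 5.12 ± 0.63 on the log2 scale (edgeR adjusted p = 5.71e-07), and overlapped in controls (0.74 ± 0.47, adjusted p = 0.229). Its control difference was called without control marrow replicate 3 (1.46). Rgs2 was lower in the bone cells of the knockout, at -1.49 ± 0.24 (adjusted p = 6.83e-05). In controls it was -0.57 ± 0.24 (adjusted p = 0.0713), and -0.57 with the replicate number as a block (adjusted p = 0.0340, within 0.00339 to 0.190 over 27 alternatives). Pde4d was higher in the bone cells of the knockout, at 0.83 ± 0.25 (adjusted p = 0.0101), but not without knockout marrow replicate 1 (0.69) or knockout GFP-negative replicate 2 (0.48) or with library totals alone. Pde4d in controls was called with the block and with merged-exon length correction (0.60 ± 0.30 without a block, adjusted p = 0.121; 0.60 with it, adjusted p = 0.0403, within 0.0403 to 0.469 over 27 alternatives).

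In GFP-positive over GFP-negative bone, 2 of the 10 were higher and 5 lower in the knockout, and 2 higher and 4 lower in controls, beside 50.4% (25.5% higher and 24.9% lower) of all genes in the knockout and 40% (18.2% higher and 21.8% lower) in controls. Pth1r differed by 1.49 ± 0.13 in the knockout and 1.45 ± 0.13 in controls, and Pde4b by 3.14 ± 0.35 in the knockout and 1.51 ± 0.33 in controls. Rgs2 was lower, at -2.18 ± 0.27 in the knockout and -2.71 ± 0.28 in controls (all edgeR adjusted p at most 0.00204). Pthlh was lower in GFP-positive bone, at -3.73 ± 0.57 in the knockout and -5.46 ± 0.90 in controls, the control value being fitted on 6 reads and standing at -4.87 without control GFP-positive replicate 2 (adjusted p = 9.92e-06 and 4.08e-05). Pde4d was lower as well, at -1.30 ± 0.27 in the knockout and -0.87 ± 0.30 in controls (adjusted p = 5.22e-04 and 0.0287), and its control value was not called without any 1 of the control GFP-positive libraries (-0.89 to -0.85) or control GFP-negative replicate 1 (-0.77) or 3 (-0.89), with no filter, library totals or RLE. Arrb2 was lower in GFP-positive bone of the knockout, at -1.53 ± 0.26 (adjusted p = 7.26e-05), against -0.10 ± 0.27 in controls (adjusted p = 0.792), the difference tested above. Gna11 was lower, at -0.52 ± 0.10 in the knockout and -0.28 ± 0.10 in controls (adjusted p = 1.76e-04 and 0.0249), but its control value was not called with size factors by RLE (-0.18), with no filter, library totals alone or DESeq2, or without control GFP-positive replicate 2 (-0.22) or 3 (-0.29) or control GFP-negative replicate 1 (-0.28) or 3 (-0.23). Gnas did not differ past the threshold between the bone subsets (0.11 ± 0.12 in the knockout and 0.01 ± 0.12 in controls, adjusted p = 0.492 and 0.950).

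Across the 18 libraries the level of Pde4b followed that of Pth1r, and the level of Rgs2 ran against it. Pearson's r of log2(CPM + 1) with Pth1r was 0.98 for Pde4b and -0.95 for Rgs2, 0.83 for Gnas, -0.88 for Arrb2, -0.82 for Arrb1 and -0.62 for Gnaq. For Pde4d it was -0.34, for Pthlh -0.14 and for Gna11 -0.02. The libraries fall into 6 groups that differ in cell type, so r describes the order of the groups and has no test. In 5 of the 6 groups the library with the least Pth1r also had the least Pde4b, in knockout marrow only just (5.49 CPM of Pde4b against 5.50 CPM in the next). In control GFP-positive bone the library with the least Pde4b had the most Pth1r. In each knockout group the library with the least of both genes was replicate 3. Same-numbered knockout libraries correlated, so these groups are not independent. How many other genes share this pattern with Pth1r was not counted. The 5 genes most like Pth1r by this measure, among 9516 genes with a mean of at least 5 CPM, were Adk (r = 0.998), Cd9 (0.994), Morf4l1 (0.992), Pygl (0.990) and Npm1 (0.990). Adk, for adenosine kinase, averaged 620.5 ± 102 CPM in knockout and 872 ± 15.7 CPM in control GFP-positive bone, and 31.2 ± 3.21 CPM in knockout and 62.2 ± 4.69 CPM in control marrow (SD, n = 3 each). Pygl, for liver glycogen phosphorylase, averaged 161 ± 16.9 CPM in knockout and 202 ± 14.8 CPM in control GFP-positive bone, and 3.23 ± 0.372 CPM in knockout and 5.11 ± 0.624 CPM in control marrow. The means of both genes over the 6 groups came in the same order as those of Pth1r, which adds no support, since both were picked by r over these libraries.

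**Figure D3:**
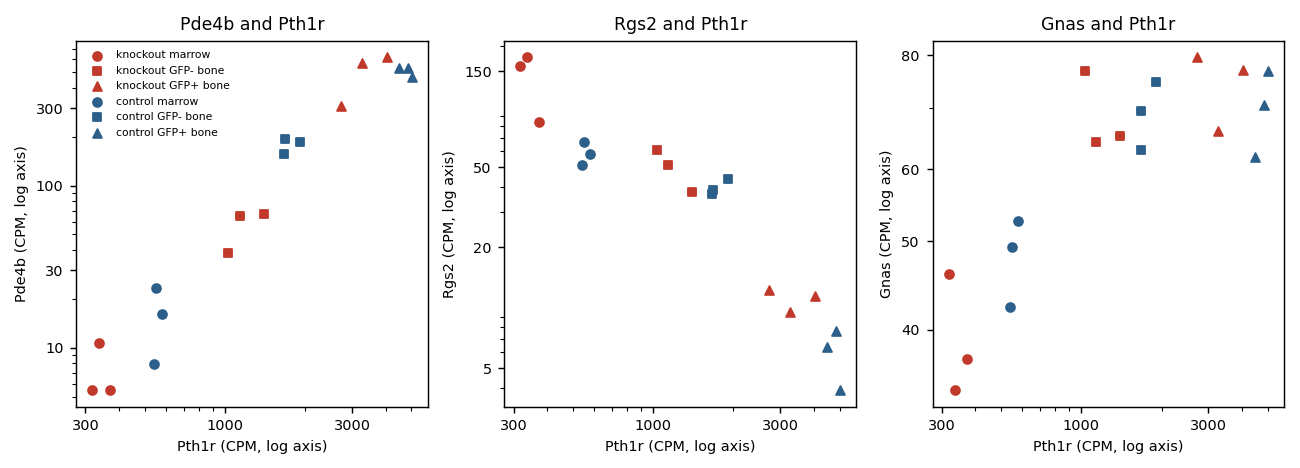
Level of Pde4b, Rgs2 and Gnas against that of Pth1r in each of the 18 libraries, in CPM on log axes; red is knockout and blue control, circles are marrow, squares GFP-negative bone and triangles GFP-positive bone. Pde4b is lowest in the marrow libraries and highest in GFP-positive bone, and Rgs2 the reverse, with r of 0.98 and -0.95, while Gnas is lower in marrow and flat between the bone subsets.

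A wider list of 76 genes of the same pathway, other than the 10, was read for context, of which 66 were tested. In knockout marrow 26 rose and 15 fell, in GFP-positive bone 25 rose and 9 fell, and in GFP-negative bone 19 rose and 10 fell (edgeR adjusted p under 0.05). That is 62.1%, 51.5% and 43.9% of the 66, where 47.9%, 51.3% and 47.1% of all genes were called in the same 3 comparisons, so that the counts in bone are near the share of all genes. The median log2 fold change over the list was 0.37, 0.34 and 0.33, beside the medians near 0 over all genes given above. With the length trend removed the counts were 19 higher and 16 lower in marrow, 22 and 8 in GFP-positive bone, and 13 and 6 in GFP-negative bone, with medians of 0.21, 0.23 and 0.13.

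Within the list, of the 9 tested genes of the phospholipase C arm 6 rose and 0 fell in marrow, 8 and 0 in GFP-positive bone and 6 and 1 in GFP-negative bone. With the length trend removed 4 rose and 2 fell in marrow, 6 and 1 in GFP-positive bone and 3 and 1 in GFP-negative bone, where 19.2%, 22.5% and 17% of all genes were called higher and 20.1%, 19.1% and 20.5% lower. The list was not tested as a set. Itpr2, a calcium release channel opened by inositol trisphosphate, averaged 42.6 ± 1.60 CPM in knockout against 11.6 ± 0.985 CPM in control marrow (log2 fold change 1.87 ± 0.13, adjusted p = 5.91e-09). In GFP-positive bone Itpr2 averaged 45.4 ± 4.10 CPM in the knockout against 9.97 ± 1.47 CPM in controls (log2 fold change 2.20 ± 0.14, adjusted p = 6.69e-10). Its relative Itpr1 averaged 11.5 ± 0.791 CPM in knockout against 1.42 ± 0.791 CPM in control GFP-positive bone (log2 fold change 2.98 ± 0.27, adjusted p = 5.94e-08), and its change was 3.58 without control replicate 1. With the length trend removed these changes stood at 0.99 for Itpr2 in marrow, 0.97 for Itpr2 in GFP-positive bone and 1.84 for Itpr1, all still called.

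On the cAMP side, of 8 adenylyl cyclases tested 4 rose and 1 fell in marrow, 3 and 0 in GFP-positive bone and 3 and 0 in GFP-negative bone. With the length trend removed 1 rose and 1 fell in marrow, 0 and 0 in GFP-positive bone and 2 and 0 in GFP-negative bone. The length-corrected shares of all genes are those given for the phospholipase C arm. Adcy3, a cyclase, averaged 63.5 ± 4.90 CPM in knockout against 28.1 ± 0.285 CPM in control GFP-negative bone (log2 fold change 1.18 ± 0.14, adjusted p = 1.74e-06). Of 10 protein kinase A subunits, inhibitors and anchors 6 rose and 4 fell in marrow, 4 and 1 in GFP-positive bone and 4 and 1 in GFP-negative bone. After length correction these counts were 4 and 3, 6 and 0, and 5 and 0. Akap13, an anchoring protein for the kinase, averaged 38.9 ± 7.13 CPM in knockout against 8.79 ± 1.55 CPM in control GFP-positive bone (log2 fold change 2.14 ± 0.18, adjusted p = 2.74e-08), and 34.7 ± 6.25 CPM in knockout against 9.61 ± 0.942 CPM in control GFP-negative bone (log2 fold change 1.85 ± 0.19, adjusted p = 2.61e-07). Of 9 other phosphodiesterases 4 rose and 1 fell in marrow, 3 and 0 in GFP-positive bone and 3 and 0 in GFP-negative bone. With the length trend removed 2 rose and 1 fell in marrow, 2 and 2 in GFP-positive bone and 0 and 0 in GFP-negative bone. Pde3b, which breaks down cAMP, averaged 27.2 ± 1.10 CPM in knockout against 4.64 ± 0.240 CPM in control marrow (log2 fold change 2.55 ± 0.24, adjusted p = 1.46e-07). After length correction Adcy3 stood at 0.59, Akap13 at 0.87 and 0.87 in GFP-positive and GFP-negative bone, and Pde3b at 1.84, all still called.

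Of 14 other G protein subunits tested 1 rose and 6 fell in marrow, 3 and 6 in GFP-positive bone and 1 and 5 in GFP-negative bone. With the length trend removed 1 rose and 6 fell in marrow, 3 and 4 in GFP-positive bone and 1 and 4 in GFP-negative bone, beside the length-corrected shares of all genes given for the phospholipase C arm. Gng11 and Gng5, short genes for gamma subunits, fell in GFP-negative bone. Gng11 averaged 24.8 ± 2.36 CPM in the knockout against 50.7 ± 5.12 CPM in controls (log2 fold change -1.03 ± 0.13, adjusted p = 2.16e-06), and Gng5 69.8 ± 7.44 CPM in the knockout against 120.0 ± 8.40 CPM in controls (log2 fold change -0.78 ± 0.10, adjusted p = 4.95e-06). With the length trend removed they stood at -0.49 and -0.51, still called. Of 12 receptor kinases and other RGS proteins 4 rose and 2 fell in marrow, 3 and 1 in GFP-positive bone and 1 and 2 in GFP-negative bone. After length correction these counts were 5 and 2, 3 and 1, and 0 and 1. Rgs3, a relative of Rgs2, averaged 293 ± 52.0 CPM in knockout against 105 ± 2.66 CPM in control marrow (log2 fold change 1.49 ± 0.16, adjusted p = 6.62e-07). Of 4 other ligands, receptors and receptor partners 1 rose and 1 fell in each subset. After length correction 2 rose and 1 fell in marrow, and 2 rose and 0 fell in each bone subset. Slc9a3r1, the scaffold NHERF1 that binds the tail of PTH1R, rose in GFP-positive bone, at 16.5 ± 4.91 CPM in the knockout against 3.49 ± 0.921 CPM in controls (log2 fold change 2.21 ± 0.21, adjusted p = 6.55e-08). Ramp1, a receptor activity-modifying protein, fell in marrow, at 19.1 ± 3.15 CPM in the knockout against 57.3 ± 15.8 CPM in controls (log2 fold change -1.58 ± 0.17, adjusted p = 5.13e-07).

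**Figure D4:**
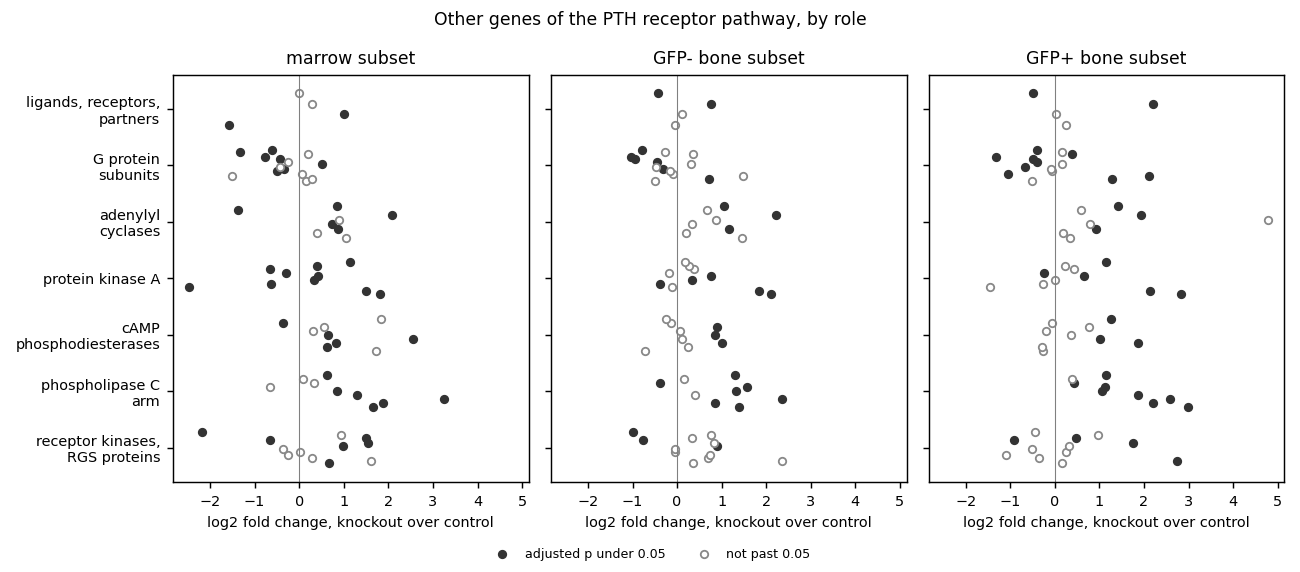
Log2 fold change of knockout over control for the 66 tested genes of the wider pathway list, 1 point per gene, grouped by role, in the 3 subsets; filled points passed an adjusted p of 0.05 in edgeR. The values carry the length trend; in GFP-positive bone the median is 1.16 for the phospholipase C arm and -0.25 for the other G protein subunits.

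Between subsets of the controls, 14 of the 66 were higher and 35 lower in GFP-positive bone than in marrow, 14 higher and 22 lower in GFP-negative bone than in marrow, and 6 higher and 28 lower in GFP-positive than in GFP-negative bone. In these 3 comparisons 74.2%, 54.5% and 51.5% of the list were called, beside 62.8%, 39.3% and 40% of all genes. Slc9a3r1, the NHERF1 scaffold, averaged 3.49 ± 0.921 CPM in GFP-positive bone against 96.8 ± 10.4 CPM in marrow (log2 fold change -4.78 ± 0.20, adjusted p = 1.03e-13). Gnai1, an inhibitory alpha subunit that lowers cAMP, averaged 33.5 ± 1.5 CPM in GFP-positive against 165 ± 19.6 CPM in GFP-negative bone (log2 fold change -2.30 ± 0.13, adjusted p = 8.88e-11). Pde1a, a calcium-dependent phosphodiesterase, averaged 3.16 ± 1.16 CPM in GFP-positive bone against 61.0 ± 12.2 CPM in marrow (log2 fold change -4.25 ± 0.23, adjusted p = 7.88e-12), and Prkcd, a protein kinase C, 4.13 ± 0.943 CPM in GFP-positive bone against 44.1 ± 13.3 CPM in marrow (log2 fold change -3.40 ± 0.21, adjusted p = 3.72e-11). Gnb4, a beta subunit, ran the other way, at 260.3 ± 25.3 CPM in GFP-positive bone against 46.6 ± 8.15 CPM in marrow (log2 fold change 2.48 ± 0.14, adjusted p = 1.62e-11). In GFP-negative bone against marrow, Prkar2b, a regulatory subunit of protein kinase A, averaged 19.1 ± 2.95 CPM in bone against 83.2 ± 13.3 CPM in marrow (log2 fold change -2.13 ± 0.17, adjusted p = 7.86e-09), and Adcy2, a cyclase, 27.7 ± 1.78 CPM in bone against 103 ± 25.5 CPM in marrow (log2 fold change -1.90 ± 0.21, adjusted p = 8.86e-07), while Gng2, a gamma subunit, averaged 13.5 ± 3.06 CPM in bone against 2.40 ± 0.684 CPM in marrow (log2 fold change 2.49 ± 0.25, adjusted p = 2.20e-07).

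The knockout subsets differed in the same list by 19 higher and 32 lower genes in GFP-positive bone over marrow, 13 and 25 in GFP-negative bone over marrow, and 16 and 26 in GFP-positive over GFP-negative bone. These make up 77.3%, 57.6% and 63.6% of the list, beside 67.3%, 46.9% and 50.4% of all genes. Ramp2, the partner that PTH1R binds among the receptor activity-modifying proteins, averaged 2.62 ± 0.460 CPM in GFP-positive bone against 31.6 ± 3.88 CPM in marrow of the knockout (log2 fold change -3.57 ± 0.18, adjusted p = 2.30e-12). In knockout GFP-negative bone it averaged 6.98 ± 1.21 CPM (log2 fold change -2.16 ± 0.16, adjusted p = 1.52e-09 over marrow). Gnai1 was again lower in GFP-positive than in GFP-negative bone, at 16.1 ± 2.38 CPM in GFP-positive against 154 ± 11.2 CPM in GFP-negative bone (log2 fold change -3.25 ± 0.14, adjusted p = 6.35e-13).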

How the data were processed

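Per the labels, RNA from 18 sorted samples was purified with the RNeasy Plus Micro kit, amplified with SMART-Seq v4 Ultra Low Input and made into libraries with SMARTer ThruPLEX. The authors deposited whole-number counts of reads per gene, not normalized, as 1 table for each sample. Per the submitters' processing notes, the tools were STAR, featureCounts and DESeq2 and the build was mm10. Tool versions, the counting strand and the treatment of reads that map to several places are not given in the sources used here. Samples were assigned to groups by title.

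From the counts, edgeR 4.0.16 (R 4.3.3) was fitted by quasi-likelihood to 6 group means over all 18 libraries, with TMM factors on full library totals, filterByExpr (15516 of 54446 genes kept) and 12 residual degrees of freedom. The Benjamini-Hochberg threshold was 0.05 over all genes tested, and each SE is the log2 fold change divided by the square root of its F. In all, 12 comparisons were made: knockout against control in each subset, 3 differences of that effect between subsets, and 3 subset pairs in each genotype. The length trend was removed with a lowess curve of each library's log ratios on log length. The fitting code was tested on simulated data. Gene lengths and overlaps came from GENCODE vM21 on mm10. The alternatives were DESeq2 1.42.0, 2 further scalings, no filter, 2 length corrections, other dispersion and group choices, a replicate block and leaving out each library. Replicates were compared in pairs, and each pair differed beyond sampling noise (a chi-square of 13.7 or more per degree of freedom).

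The 10 genes, the wider list and the markers were chosen with earlier results of these data known. Of the wider list, up to 4 genes a comparison are named, by smallest p among called genes whose groups did not overlap and averaged 5 CPM or more in either one. Numbers in the labels pair samples only where every same-numbered pair of libraries correlated above 0.1 after group means were removed. That held between the knockout subsets (0.134 to 0.297) and between GFP-negative bone and marrow of controls (0.117 to 0.169). Intervals and floors cover counting error only.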

Additional observations from a re-analysis of the deposited data

Results flagged for a closer look

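The knockout effect on Pthlh differed between subsets in a direct test. Its effect in GFP-positive bone minus that in marrow was 6.11 on the log2 scale (edgeR adjusted p = 0.00952; 5.38 to 6.61 over the alternatives), and its effect in GFP-negative bone minus that in marrow was 4.38 (edgeR adjusted p = 0.00241; 3.65 to 4.89). Both values involve marrow, where the knockout libraries held 7, 7 and 4 Pthlh reads and the controls 17, 53 and 93.

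The knockout effect on Arrb2 also differed, between the bone subsets, by -1.42 for GFP-positive minus GFP-negative bone (edgeR adjusted p = 0.0288). All 3 knockout libraries lay above the controls in GFP-negative bone, and both genotypes were under 5 CPM in GFP-positive bone. It was called in 21 of 27 alternatives, as given above. No group had more than 3 libraries, so single libraries were not tested for standing apart.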

How the results depend on the processing

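Of the values for single genes, 154 kept their direction and their side of the threshold with RLE factors, 154 with the estimateDisp dispersion (added after the data were seen), 151 with DESeq2, 151 when only the groups compared were fitted, 150 without the filter on low counts, 145 and 143 with the length trend removed by longest transcript and by merged exons, and 133 with library totals alone. Removal of the trend by merged exons reversed Gnas in GFP-positive bone, knockout over control, to -0.71, and library totals alone reversed it to -0.29 and Gna11 in knockout GFP-negative bone over marrow to -0.21; for these the cause was not tested. Levels per kb moved by more than 1 SD in 47 of the group values when the longest transcript replaced merged exons.

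With the trend of the longest transcript removed, 1 of the 10 genes was called in GFP-positive bone (4 as counted) and 4 in GFP-negative bone (7 as counted), and 19 genes of the wider list in GFP-negative bone (29 as counted). Of all genes under that correction, 22.5% were called higher and 19.1% lower in GFP-positive bone, and 17% and 20.5% in GFP-negative bone. These counts are therefore not particular to the 10 genes or the list. With library totals alone, 4 of the 10 (1 with TMM) were called for the difference in knockout effect of GFP-positive bone minus marrow and 3 (1 with TMM) for GFP-negative bone minus marrow, and over all genes 5676 (2853 with TMM) and 3735 (1209 with TMM). For GFP-positive minus GFP-negative bone, 2 of the 10 were called with DESeq2 and 2 with only the groups compared. Leaving out each library gave 1 to 2, 1 to 2 and 0 to 2 of the 10 for these 3 differences in turn. For DESeq2, the compared groups, left-out libraries and the replicate block, shares of all genes are not given here. Those counts are not read as a result about the 10 genes. Most calls of single genes that 1 library decided are given above. In addition, Gnaq in control GFP-negative bone over marrow was called without control GFP-negative replicate 1 (-0.42, adjusted p = 0.0353), and Arrb1 in knockout GFP-positive over GFP-negative bone without knockout GFP-positive replicate 2 (-1.06) or GFP-negative replicate 3 (-0.91). Of the differences in effect, Rgs2 for GFP-negative bone minus marrow was called without knockout marrow replicate 1 (-1.18), and Pde4b for GFP-positive bone minus marrow without control marrow replicate 1 (1.40). Pde4b for GFP-positive minus GFP-negative bone was called without control marrow replicate 1 or 3, knockout marrow replicate 2 or knockout GFP-positive replicate 3 (1.62 to 1.87).

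The replicate number as a block gave 2 of the 10 genes for GFP-positive bone minus marrow and 2 for GFP-positive minus GFP-negative bone. It called Gnas in marrow, knockout over control (-0.30, edgeR adjusted p = 0.0221), and the differences in effect of Gnas for GFP-positive bone minus marrow (0.39, adjusted p = 0.0224) and of Pde4b between the bone subsets (1.61, adjusted p = 0.0214). Knockout and control libraries share only a number (correlations of -0.0923 to 0.172). Beside the paired calls given above, the block changed no other call. Small counts limit Pthlh, whose levels in GFP-positive bone and knockout marrow rest on 18 reads or fewer per library.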
